A study of Mus musculus with 6 samples.

Results

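Oxidative phosphorylation is carried out by 5 protein complexes of the inner mitochondrial membrane, and the genes of their subunits were followed here in myoblasts treated with PSB-KD107. The genes were taken by symbol: those starting with Nduf, Uqcr, Cox4 to Cox8, Atp5, mt-Nd, mt-Co, mt-Cyt or mt-Atp, together with Sdha, Sdhb, Sdhc, Sdhd and Cyc1, leaving out 4 symbols marked as pseudogenes. This gave 106 of the 47069 genes in the table, of which 93 lie in the nucleus and 13 in mitochondrial DNA. The symbols also took in 7 Ndufaf genes, whose products assemble complex I and are not subunits of it, and Atp5s and Atp5sl, which are not subunits and were kept apart. Ndufa4 and Ndufa4l2 carry a complex I name but belong to complex IV and were counted there.

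Complexes I and II pass electrons from NADH and succinate to ubiquinone, complex III passes them on to cytochrome c, and complex IV passes them to oxygen. Complexes I, III and IV pump protons across the membrane, and complex V, the ATP synthase, uses the gradient to make ATP. Complex II is encoded wholly in the nucleus, whereas the other complexes combine subunits from both genomes. Muscle, one of the tissues that depends most on this pathway, replaces several ubiquitous subunits of complex IV by heart and muscle isoforms.

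The cells were myogenic cells of mdx mice, which lack dystrophin, so that every library comes from a dystrophic background. They were labelled as satellite cells of muscle, grown as myoblasts with FGF2 and serum. PSB-KD107 is a synthetic agonist of the receptor Gpr18, and cells received it at 10 μM or received vehicle. The labels give 2 days of treatment, while the methods describe an overnight one. Polyadenylated RNA was sequenced in 3 libraries per group, numbered 1, 2 and 4 in the table, and according to the methods the cells came from different mice.

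Library depth ran from 30917613 to 48756794 counts, so that a floor of 3 counts was worth at most 0.0962 CPM (counts scaled to library size), and such a floor covers counting error only. The 8 markers of myogenic cells were all detected in every library but at very different levels. Myf5 had 3.57 to 40.9 CPM and Des, the highest, 2784 to 3932 CPM. Myog, a transcription factor of differentiating myoblasts, had between 1175 and 2203 CPM. Pax7, the satellite cell marker, was present at 68.8, 49.9 and 60.0 CPM with vehicle and at 34.0, 26.8 and 35.1 CPM with PSB-KD107. Markers of other cells were low. The 7 fibroblast markers summed to between 1.86 and 5.23 CPM with vehicle and between 2.25 and 10.7 CPM with PSB-KD107, where Ly6a reached 8.36 CPM in library 4. The 6 endothelial markers summed to between 0.310 and 1.56 CPM with vehicle and between 0.385 and 1.21 CPM with PSB-KD107. The 7 markers of macrophages and other blood cells summed to between 2.39 and 4.97 CPM with vehicle and between 0.715 and 6.60 CPM with PSB-KD107, mostly from Itgam and Cd68, the latter at 3.84 CPM in PSB-KD107 library 1. Lum (fibroblasts), Emcn (endothelium) and Adgre1 (macrophages) had no count in any library, which allows at most 3 counts in each.

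Some libraries stood apart for whole chromosomes. In PSB-KD107 library 4, the 737 tested genes of chromosome 6 had a median log2 difference of -0.53 from the other 5 libraries. On chromosome 14, with 464 tested genes, the median difference was 0.68 in vehicle library 1, 0.74 in PSB-KD107 library 1 and 0.72 in PSB-KD107 library 4. In vehicle 2, vehicle 4 and PSB-KD107 2 it was -0.61, -0.69 and -0.57. For each library the median of the other 5 tends to fall in the opposite set. Each value thus spans about the whole gap, and the values do not add up. The other 18 chromosomes lay between -0.061 and 0.088 in every library. No gene of the 5 complexes lies on chromosome 14 and 4 lie on chromosome 6, namely Ndufa4, Ndufa5, Ndufa9 and Ndufb2.

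**Figure D1:**
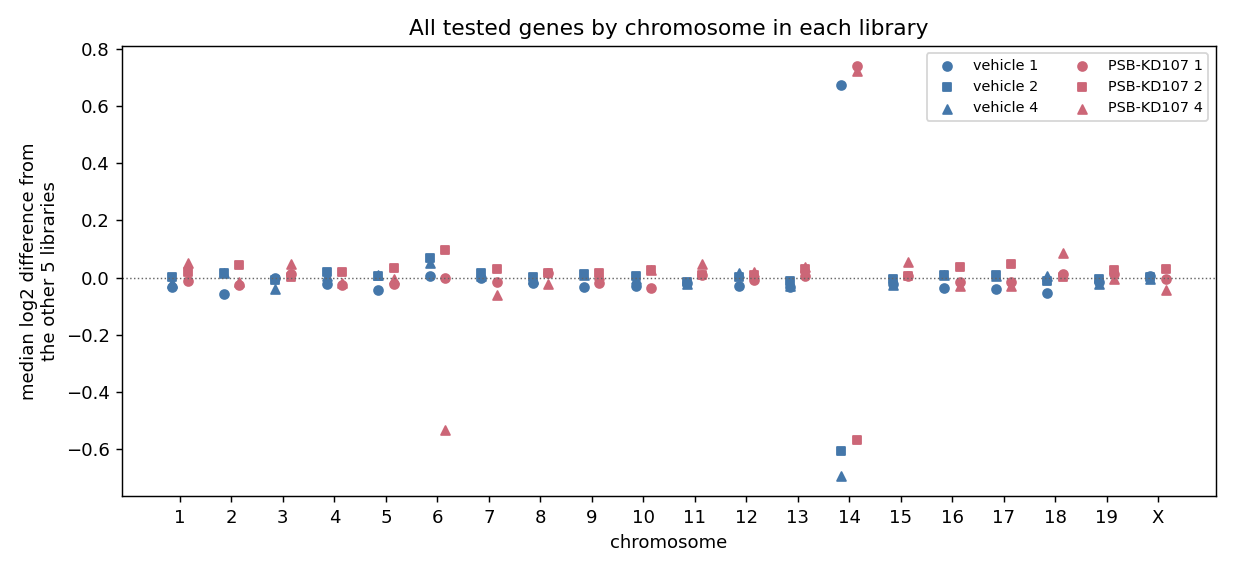
Median log2 difference of the tested genes of each chromosome in each library from the median of the other 5 libraries (y axis), by chromosome (x axis), with vehicle in blue and PSB-KD107 in red. Chromosome 6 stands at -0.53 in PSB-KD107 library 4, and chromosome 14 splits the libraries into a higher set (vehicle 1, PSB-KD107 1 and 4) and a lower set.

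The genes of oxidative phosphorylation moved little with PSB-KD107, and the gene that stood out was Cox8b, the heart and muscle isoform of a complex IV subunit, at 2.26 times its vehicle level. Of the 106 genes, 99 had enough counts to be tested, and 96 of these lay within 0.5 of 0 on the log2 scale, which is 96.97% against 79.51% of all genes tested. The 3 outside that range were Cox8b, Cox7a1 and Cox6b2, all in complex IV. The median standard error on the log2 scale was 0.12 for the 99 genes against 0.23 over all genes, so these shares come from unlike precision. By edgeR's quasi-likelihood test with Benjamini-Hochberg adjustment over all 14165 genes tested, none of the 99 was called at an adjusted p under 0.05, and neither was any other gene (0%). DESeq2 called 480 genes in all (3.39%, with 2.46% higher and 0.925% lower) and among the 99 only Cox8b, which was higher.

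At an unadjusted p under 0.05 in edgeR, 5 genes of the complexes were higher and 0 were lower, 5.05% of those tested against 9.40% of all genes, where 6.47% were higher and 2.93% lower. The 5 were Cox8b, Cox5a, Ndufa8, Ndufb9 and Uqcr10. The groups of libraries did not overlap for 16 of the 99 genes, 15 of them higher and 1 lower, which is 16.2% beside 15.8% of all genes, where 9.20% were higher and 6.59% lower. Both shares were near or below those of all genes in total, and the calls of the complexes leaned to the higher side. The direction was less even, since 83 of the 99 genes had a fold change above 0, or 83.8%, against 49.9% of all genes tested, but most of these differences were smaller than their errors. The median standard error was 0.12 on the log2 scale for the nuclear genes and 0.30 for the mitochondrial ones.

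**Figure D2:**
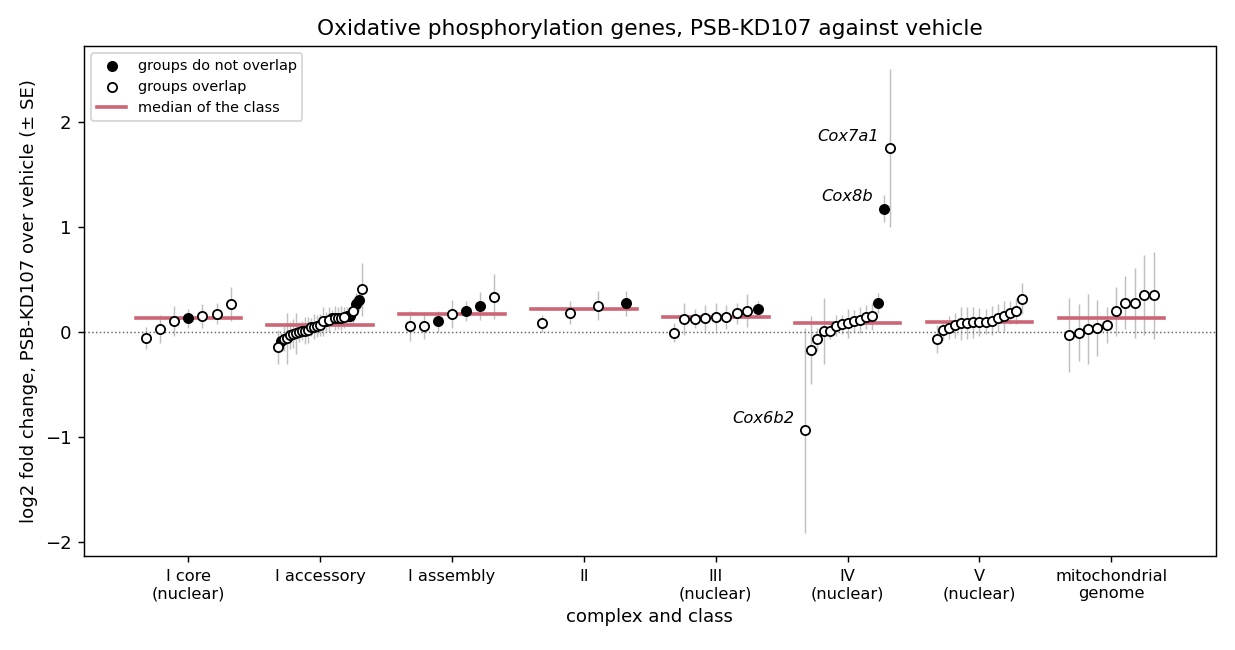
Log2 fold change of PSB-KD107 over vehicle with its standard error (y axis) for each of the tested genes except Cox7a2l, Atp5s and Atp5sl, by complex and class (x axis). Filled points mark genes whose 3 PSB-KD107 libraries do not overlap the 3 vehicle libraries, and red bars mark class medians, which lie between 0.068 and 0.22.

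Summed over the 93 nuclear genes, the level was 16335, 14454 and 14397 CPM with vehicle and 17310, 15157 and 16374 CPM with PSB-KD107. The groups overlapped, since vehicle library 1 lay above PSB-KD107 library 2. The 3 highest libraries were those with the high level of chromosome 14 genes, and the part of whatever distinguishes these libraries in the shift was not tested. The median log2 fold change of the 89 nuclear genes tested was 0.11, with 75 of them above 0, against a median of -0.00074 over all genes. It was 0.056 with the level of chromosome 14 as a term in the fit, 0.045 without PSB-KD107 library 1 and 0.17 without vehicle library 1.

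For the 13 mitochondrial genes the sum was 7023, 7263 and 5745 CPM with vehicle and 8240, 8104 and 4884 CPM with PSB-KD107. PSB-KD107 libraries 1 and 2 were thus the highest and PSB-KD107 library 4 the lowest of the 6. These genes took 0.701%, 0.725% and 0.567% of the counts of the vehicle libraries and 0.850%, 0.817% and 0.475% of those of the PSB-KD107 libraries. The median log2 fold change of the 10 tested was 0.13, with 8 above 0, none at an unadjusted p under 0.05 and none with groups apart. It was 0.32 when PSB-KD107 library 4 was left out, 0.0049 without PSB-KD107 library 1 and -0.00095 without PSB-KD107 library 2. The 7 genes with 100 counts or more in a library had a median of 0.066, with 5 above 0 and 2 below. The 3 tested genes under 100 counts in every library had a median of 0.35.

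The ratio of mitochondrial to nuclear sums was 0.430, 0.502 and 0.399 with vehicle and 0.476, 0.535 and 0.298 with PSB-KD107. The ranges of the groups overlapped, and the widest departure was again that of PSB-KD107 library 4. The difference between the mitochondrial and the nuclear median fold change ranged from -0.16 to 0.21 over the 6 fits that each drop 1 library, so that no order between the 2 genomes held across libraries. In these bulk samples, fewer cells of a kind and less RNA per cell cannot be told apart.

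**Figure D3:**
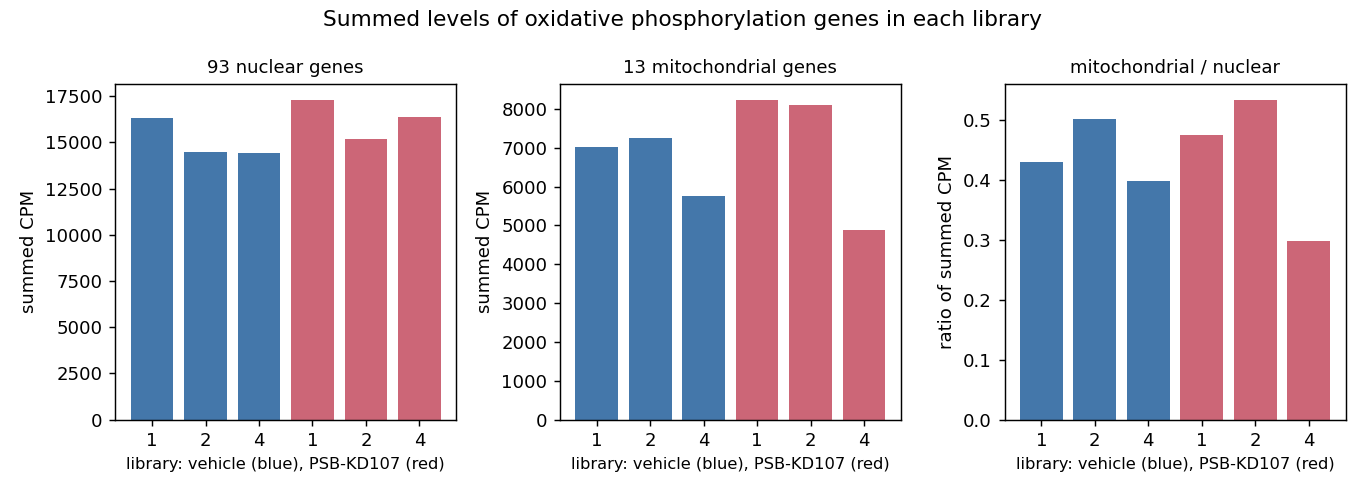
Summed CPM of the nuclear genes, summed CPM of the mitochondrial genes and their ratio (y axes) in each library (x axis; vehicle in blue, PSB-KD107 in red). The nuclear sums run from 14397 to 17310 CPM with the groups overlapping, and PSB-KD107 library 4 has the lowest mitochondrial sum (4884 CPM) and ratio (0.298).

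Complex I, the NADH dehydrogenase and the largest complex of the chain, had 36 nuclear subunits, all of them tested. Of these, 28 were above 0 and 8 below, their median being 0.10, and 2 were higher at an unadjusted p under 0.05. The median was 0.042 with the chromosome 14 term, 0.028 without PSB-KD107 library 1, 0.054 without vehicle library 2 and 0.058 without vehicle library 4. Ndufa8, an accessory subunit, had 85.6, 79.2 and 82.0 CPM with vehicle and 98.8, 93.2 and 114 CPM with PSB-KD107. All PSB-KD107 libraries lay above all vehicle libraries, at a log2 fold change of 0.31 (SE 0.10, adjusted p = 0.442 in edgeR). Ndufb9, also an accessory subunit, had 135, 123 and 119 CPM with vehicle and 157, 137 and 159 CPM with PSB-KD107. These groups were also apart, at 0.27 (SE 0.10, adjusted p = 0.502 in edgeR). Without PSB-KD107 library 4, Ndufa8 kept a fold change of 0.22.

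Among the core subunits, which hold the flavin and the iron-sulfur clusters, Ndufs1 was at 283, 282 and 283 CPM with vehicle and at 318, 291 and 320 CPM with PSB-KD107. The vehicle libraries were nearly equal and all PSB-KD107 libraries lay above them, and the fitted log2 fold change was 0.13 with an SE of 0.087 (adjusted p = 0.694 in edgeR). Ndufv1, the subunit that binds NADH, had a log2 fold change of 0.18 (SE 0.097), and Ndufs7 one of 0.27 (SE 0.16), or 0.15 with the chromosome 14 term. Per length, the 36 nuclear subunits of complex I had a median level of 58.3 FPKM (CPM per kilobase of exon) with vehicle, and the lowest was Ndufb2 at 9.69 FPKM. The longest annotated transcript of Ndufb2 had 4371 bases, and its level per length depends on that annotation.

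Of the 29 accessory subunits, which surround the core, 22 were above 0, with a median of 0.068. Besides Ndufa8 and Ndufb9, the groups were apart and higher with PSB-KD107 for Ndufa11, Ndufb6, Ndufb10 and Ndufs4, genes chosen here after their values were seen, with fold changes between 0.10 and 0.16. Ndufb6 had 71.1, 70.7 and 71.3 CPM with vehicle and 78.8, 77.9 and 77.3 CPM with PSB-KD107. Ndufa7 went the other way, at 79.3, 78.1 and 80.4 CPM with vehicle and 76.7, 76.5 and 70.8 CPM with PSB-KD107, and was the only gene of the 99 whose PSB-KD107 libraries were all lower. Its log2 fold change was -0.086 (SE 0.081, adjusted p = 0.782 in edgeR). Ndufv3 had the largest fitted change of the complex, 0.41, but with an SE of 0.25 and overlapping groups.

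The 7 assembly factors of complex I were all above 0 in the fit, with a median of 0.17, and none had an unadjusted p under 0.05. Ndufaf4 had 40.5, 46.1 and 46.7 CPM with vehicle and 52.3, 51.2 and 49.6 CPM with PSB-KD107. Ndufaf5 had 12.5, 14.1 and 12.6 CPM with vehicle and 16.5, 15.6 and 14.4 CPM with PSB-KD107. For both, and for Ndufaf7, the groups did not overlap, with log2 fold changes of 0.20 (SE 0.098), 0.25 (SE 0.13) and 0.10 (SE 0.10). These genes had a median of 7.29 FPKM with vehicle, below the 58.3 FPKM of the nuclear subunits of complex I. They ran from 5.42 to 20.3 FPKM, and Ndufaf1, the highest, lay above the subunit Ndufb2 at 9.69 FPKM.

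All 4 subunits of complex II, the succinate dehydrogenase that also works in the citric acid cycle, were above 0, with a median of 0.22. Sdha, the catalytic flavoprotein, had 441, 413 and 413 CPM with vehicle and 509, 451 and 572 CPM with PSB-KD107. The groups were apart, at 0.27 (SE 0.12, adjusted p = 0.557 in edgeR). Sdhd, a membrane anchor, had 187, 151 and 149 CPM with vehicle and 206, 169 and 205 CPM with PSB-KD107, with vehicle library 1 above PSB-KD107 library 2. Sdhb, the iron-sulfur subunit, had a log2 fold change of 0.18 (SE 0.11) and Sdhc, the other anchor, one of 0.083 (SE 0.083). The median of complex II was 0.15 with the chromosome 14 term and 0.14 without PSB-KD107 library 1.

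In complex III, the cytochrome bc1 complex, 8 of 9 nuclear subunits were above 0, with a median of 0.14. This median was 0.077 with the chromosome 14 term, 0.075 without PSB-KD107 library 1 and 0.22 without vehicle library 1. Uqcr10, one of the small subunits, had 92.2, 93.7 and 97.0 CPM with vehicle and 105, 107 and 116 CPM with PSB-KD107. The PSB-KD107 libraries were all higher, at 0.22 (SE 0.084, adjusted p = 0.511 in edgeR). Cyc1, the cytochrome c1 heme protein, had 292, 239 and 247 CPM with vehicle and 300, 254 and 298 CPM with PSB-KD107, with overlapping groups and a change of 0.13 (SE 0.12). Uqcrc2 and Uqcrb had 0.13 (SE 0.092) and 0.18 (SE 0.10). Uqcr11 was the most abundant per length, at 189 FPKM with vehicle, and its fitted change was -0.0042. Cox7a2l, which joins complexes III and IV into supercomplexes, had 149, 124 and 113 CPM with vehicle and 142, 119 and 140 CPM with PSB-KD107, and 0.057 (SE 0.14).

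Complex V had 15 nuclear subunits, of which 14 were above 0, with a median of 0.10, none at an unadjusted p under 0.05 and none with groups apart. Atp5b, the catalytic beta subunit, was the most abundant nuclear gene of the pathway per length at 522 FPKM with vehicle, and had 2297, 2156 and 2182 CPM with vehicle and 2418, 2190 and 2510 CPM with PSB-KD107. These overlapped, at 0.10 (SE 0.12). The largest change of the complex was that of Atp5g1, at 139, 111 and 109 CPM with vehicle and 172, 131 and 145 CPM with PSB-KD107, or 0.32 (SE 0.15, adjusted p = 0.590 in edgeR), and at 0.19 without PSB-KD107 library 1. Atp5g1, Atp5g2 and Atp5g3 encode the same mature protein of the membrane ring, subunit c. Atp5g2 and Atp5g3 had changes of 0.11 (SE 0.14) and 0.15 (SE 0.14), and per length Atp5g3 was the highest of the 3, at 234 FPKM with vehicle against 30.9 FPKM for Atp5g2 and 24.4 FPKM for Atp5g1. These levels depend on the annotated exon length. The longest annotated transcript had 4715 bases for Atp5g1, against 753 for Atp5g2 and 862 for Atp5g3. Atp5c1 and Atp5j had 0.20 (SE 0.12) and 0.19 (SE 0.11). The median of complex V was 0.028 with the chromosome 14 term, and over the fits that each drop 1 library it ran from 0.011 without PSB-KD107 library 1 to 0.21 without vehicle library 1, with 0.17 without PSB-KD107 library 2, 0.063 without vehicle library 2 and 0.030 without vehicle library 4. Of the genes kept apart, Atp5sl, which is known as a factor of complex I assembly despite its symbol, had 13.5, 13.5 and 12.4 CPM with vehicle and 14.9, 14.3 and 14.6 CPM with PSB-KD107, groups apart at 0.15 (SE 0.12), and Atp5s had -0.018 (SE 0.14).

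Complex IV, the cytochrome c oxidase, held both the clearest change and the least even libraries. Of its 15 tested nuclear genes, 12 were above 0, with a median of 0.085. The median was 0.052 with the chromosome 14 term, and over the fits that each drop 1 library it ran from 0.0098 without PSB-KD107 library 1 to 0.17 without vehicle library 1, with 0.14 without PSB-KD107 library 2, 0.056 without vehicle library 2 and 0.043 without vehicle library 4. Its isoform pairs let the muscle form of a subunit be compared with the ubiquitous form in the same library. Cox8b, the heart and muscle form of subunit VIII, had 1127, 956 and 782 counts with vehicle and 2716, 2072 and 2228 counts with PSB-KD107. In CPM this was 28.8, 27.4 and 24.3 against 54.0, 66.5 and 61.3. Every PSB-KD107 library was thus above every vehicle library. The gene (ENSMUSG00000025488) lies on chr7:140898945-140900446 on the minus strand of GRCm38.

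The log2 fold change of Cox8b was 1.18 (SE 0.12), with an adjusted p of 0.0874 in edgeR and of 5.8e-13 in DESeq2. By p it ranked at place 11 of the 14165 genes tested, and an exact permutation test of its CPM gave p = 0.1, the smallest that 3 against 3 libraries allow. Over the 6 fits that each drop 1 library, the change stayed between 1.10 and 1.24, with adjusted p in edgeR from 0.109 to 0.735. It was 1.18 with the chromosome 14 term (adjusted p = 0.0937 in edgeR). Cox8a, the ubiquitous form, had 181, 182 and 194 CPM with vehicle and 170, 200 and 161 CPM with PSB-KD107, which overlapped at a log2 fold change of -0.068 (SE 0.11).

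Per length, Cox8b was at 74.4 ± 6.40 FPKM (SD, n = 3) with vehicle and at 168 ± 17.4 FPKM (SD, n = 3) with PSB-KD107, while Cox8a was at 300.0 ± 11.8 and 286 ± 32.9 FPKM. The ratio of Cox8b to Cox8a was 0.273, 0.258 and 0.215 with vehicle and 0.546, 0.571 and 0.654 with PSB-KD107. The ubiquitous form remained the more abundant in all 6 libraries. The summed markers of differentiated muscle were 42660, 33728 and 33461 CPM with vehicle and 29475, 27078 and 32903 CPM with PSB-KD107, and the summed myogenic markers were 7930, 8574 and 8535 CPM against 7002, 7724 and 7537 CPM. Both sums were lower in every PSB-KD107 library than in every vehicle library. The sum for differentiated muscle rests on a few abundant genes such as Myh3 and Actc1, at log2 fold changes of -0.44 and -0.60. Of its 7 genes, 4 were above 0, among them Ckm at 0.33 (SE 0.51), and the median was 0.0070. Ckm had 287, 340 and 425 CPM with vehicle and 222, 281 and 818 CPM with PSB-KD107. These 4 genes (Ckm, Tnni1, Acta1 and Tnnt3) exceeded the vehicle library of equal number only in PSB-KD107 library 4. Of the 8 myogenic markers 6 were below 0, with a median of -0.26. Their part in the change of Cox8b was not tested.

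Cox7a1, the heart and muscle form of subunit VIIa, had 7.09, 3.12 and 2.33 CPM with vehicle and 10.1, 4.49 and 27.7 CPM with PSB-KD107. Library 4 was far above the other PSB-KD107 libraries, and library 2 lay below vehicle library 1. The log2 fold change of 1.75 had an SE of 0.75 (adjusted p = 0.553 in edgeR) and was 0.80 without PSB-KD107 library 4 and 1.07 with the chromosome 14 term. Its partner Cox7a2 was at 128, 115 and 111 CPM with vehicle and 133, 121 and 115 CPM with PSB-KD107, and the ratio per length was 0.098, 0.048 and 0.037 against 0.134, 0.066 and 0.423.

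Cox6a2, the heart and muscle form of subunit VIa, was high in these myoblasts, at 120, 75.4 and 60.6 CPM with vehicle and 116, 69.3 and 72.2 CPM with PSB-KD107. Its highest values were those of library 1 in both groups, and its log2 fold change was 0.010 (SE 0.32), or -0.16 with the chromosome 14 term. Cox6a1, the ubiquitous form, had 0.10 (SE 0.10). Of the 3 heart and muscle isoforms, only Cox8b had PSB-KD107 libraries that did not overlap vehicle. The difference between the isoforms was not tested.

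Cox6b2, known as the testis form of subunit VIb, had 10.7, 11.2 and 14.7 CPM with vehicle and 6.32, 12.5 and 0.385 CPM with PSB-KD107. Library 4 was the lowest by far. The log2 fold change was -0.93 (SE 0.98, adjusted p = 0.795 in edgeR), and it was -0.38 without that library and -1.86 without PSB-KD107 library 2. Cox6b1, the ubiquitous form, had 0.085 (SE 0.14). Cox4i1, the main form of subunit IV, was at 451, 428 and 423 CPM with vehicle and 472, 445 and 454 CPM with PSB-KD107. Its lung and hypoxia-linked form Cox4i2 had 13, 0 and 0 counts with vehicle and 5, 0 and 7 counts with PSB-KD107. Cox7b2 and Cox8c had no count in any library, which allows at most 3 counts in each.

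**Figure D4:**
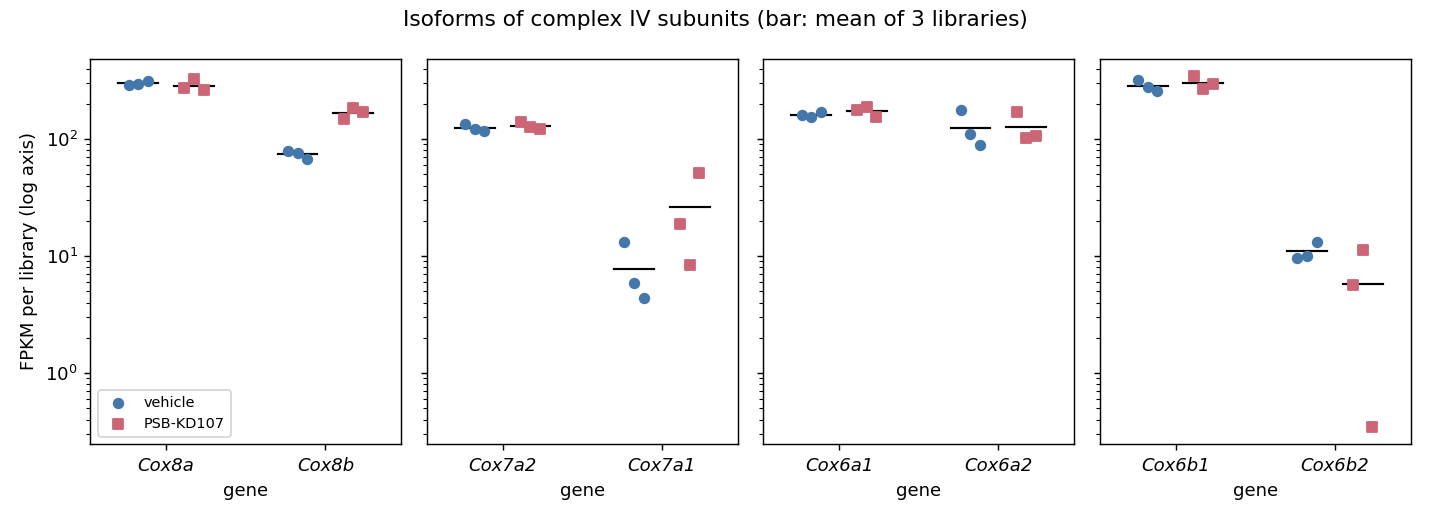
FPKM in each library (y axis, log scale) of 4 isoform pairs of complex IV (x axis), with vehicle as blue circles, PSB-KD107 as red squares and bars at the means of 3 libraries. Cox8b is the only gene shown whose groups are apart, at means of 74.4 and 168 FPKM, whereas Cox7a1 and Cox6b2 are spread by PSB-KD107 library 4.

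Among the other subunits of complex IV, Cox5a, which binds next to the catalytic core, had 179, 162 and 160 CPM with vehicle and 206, 190 and 212 CPM with PSB-KD107. The groups were apart, at 0.28 (SE 0.094, adjusted p = 0.439 in edgeR). Ndufa4 had 299, 248 and 244 CPM with vehicle and 313, 263 and 128 CPM with PSB-KD107. It lies on chromosome 6, and PSB-KD107 library 4 had the least of it, at a log2 difference of -1.04 from the other 5. Its fitted change was -0.17 with all libraries and 0.13 without that library. The other genes on chromosome 6, Ndufb2, Ndufa9 and Ndufa5, were also lower in library 4, by log2 differences of -0.71, -0.46 and -0.24. All 4 had fitted changes below 0, whereas of the 85 nuclear genes tested elsewhere 75 were above 0, with a median of 0.11. Ndufa4l2, the hypoxia-linked paralog of Ndufa4, had 4, 0 and 0 counts with vehicle and 6, 1 and 24 counts with PSB-KD107.

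The start regions of Cox8b and Cox8a are shown because they hold different short motifs, next to that of Cox7a1 and that of Ndufa8 as a second gene with groups apart. Each runs from 250 bases before to 50 bases after the annotated start, 5′ to 3′ on the strand of the gene, and comes from RefSeq on GRCm38.p6: chr7:140900397-140900696 on the minus strand for Cox8b, chr7:30183921-30184220 on the plus strand for Cox7a1, chr19:7217567-7217866 on the minus strand for Cox8a and chr2:36049289-36049588 on the minus strand for Ndufa8. Capitals mark the motifs searched: the E-box CANNTG, bound by the Myod1 family among others; the core GCATGCGC of the NRF1 site; CCGGAAGT, bound by ETS proteins such as GABP; AAGGTCA, the half-site of the estrogen-related receptors; and TATAAA. Both strands were searched except for TATAAA, so that ACTTCCGG is the ETS motif on the other strand.
Cox8b: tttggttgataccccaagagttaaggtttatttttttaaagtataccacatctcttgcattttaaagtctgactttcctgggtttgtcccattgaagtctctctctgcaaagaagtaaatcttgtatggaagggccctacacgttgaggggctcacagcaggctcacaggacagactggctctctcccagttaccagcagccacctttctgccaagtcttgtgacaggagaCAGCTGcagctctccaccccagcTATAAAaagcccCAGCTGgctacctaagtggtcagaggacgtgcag
Cox7a1: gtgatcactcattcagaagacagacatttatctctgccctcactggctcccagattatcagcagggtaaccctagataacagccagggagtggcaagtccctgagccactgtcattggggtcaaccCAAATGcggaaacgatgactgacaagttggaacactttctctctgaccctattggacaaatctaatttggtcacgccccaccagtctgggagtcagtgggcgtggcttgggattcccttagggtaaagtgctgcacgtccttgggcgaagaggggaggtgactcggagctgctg
Cox8a: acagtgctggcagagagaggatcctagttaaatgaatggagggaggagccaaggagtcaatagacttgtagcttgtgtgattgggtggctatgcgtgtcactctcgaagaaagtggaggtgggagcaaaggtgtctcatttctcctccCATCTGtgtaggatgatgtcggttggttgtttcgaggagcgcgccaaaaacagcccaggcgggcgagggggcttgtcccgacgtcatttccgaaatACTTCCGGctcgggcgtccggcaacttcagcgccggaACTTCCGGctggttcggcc
Ndufa8: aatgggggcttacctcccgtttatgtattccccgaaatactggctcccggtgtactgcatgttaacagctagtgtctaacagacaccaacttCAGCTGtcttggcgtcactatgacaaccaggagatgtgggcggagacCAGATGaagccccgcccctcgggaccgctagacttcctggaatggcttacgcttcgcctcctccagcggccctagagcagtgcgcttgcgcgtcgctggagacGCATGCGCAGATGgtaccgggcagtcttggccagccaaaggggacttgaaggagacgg

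In the Cox8b window, E-boxes of the form CAGCTG began at positions -19 and 17 from the annotated start, with TATAAA at 5 between them. Cox8a held ETS motifs at -6 and 32 and an E-box at -102, and Cox7a1 held 1 E-box, at -124. Ndufa8 held the NRF1 core at -8, overlapping by 1 base an E-box at -1, and E-boxes at -158 and -111. The windows of Cox5a, Uqcr10 and Sdha, whose groups were also apart, held none of the motifs searched. A promoter entry was found for 73 of the 93 nuclear genes, with 78 windows in all, and the mitochondrial genes were not searched. The NRF1 core was in 12 of the 78 windows (15.4%) against 2.71% of all 32851 windows of this length, the ETS motif in 6.41% against 3.89% and the half-site AAGGTCA in 10.3% against 4.72%. TATAAA was in 3.85% against 8.32% and the E-box in 69.2% against 72.3%, so that Cox8b held a motif that few of these windows have. These are matches of letters and were not tested for binding.

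The 13 mitochondrial genes fell into a well counted and a barely counted set. Of the 7 well counted ones, mt-Co1, the catalytic subunit of complex IV, was the highest at 1530.3 FPKM with vehicle, above every nuclear gene of the pathway, and mt-Nd6, encoded on the other strand, was the lowest at 23.9 FPKM. mt-Co1 had 2241, 2689 and 2162 CPM with vehicle and 2426, 2890 and 2109 CPM with PSB-KD107. The groups overlapped, at a log2 fold change of 0.066 (SE 0.17). mt-Nd1, a core membrane subunit of complex I, had 993, 786 and 593 CPM with vehicle and 1330, 963 and 585 CPM with PSB-KD107. Here library 1 was the highest and library 4 the lowest in both groups, and the fitted change of 0.28 (SE 0.33, adjusted p = 0.827 in edgeR) was 0.54 without PSB-KD107 library 4.

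mt-Cytb, the only subunit of complex III from this genome, had 1286, 1302 and 1021 CPM with vehicle and 1515, 1423 and 598 CPM with PSB-KD107. PSB-KD107 libraries 1 and 2 were above all vehicle libraries, while library 4 was below them all, at a log2 difference of -1.12 from the other 5. The fitted change was -0.029 (SE 0.35) with all libraries and 0.29 without PSB-KD107 library 4. mt-Nd2, mt-Nd4, mt-Nd5 and mt-Nd6, further subunits of complex I, had 0.28 (SE 0.25), 0.039 (SE 0.27), -0.0052 (SE 0.27) and 0.20 (SE 0.23). The drop in PSB-KD107 library 4 was uneven between genes. Among the well counted genes mt-Co1 was down least, by a log2 difference of -0.20 there. The differences were -0.72 for mt-Nd1, -0.47 for mt-Nd2, -0.77 for mt-Nd4, -0.81 for mt-Nd5 and -0.46 for mt-Nd6. The ratio of mt-Cytb to mt-Co1 was 0.574, 0.484 and 0.472 with vehicle and 0.625, 0.492 and 0.284 with PSB-KD107.

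The other 6 genes, mt-Co2, mt-Atp8, mt-Atp6, mt-Co3, mt-Nd3 and mt-Nd4l, had under 100 counts in every library, although they lie next to each other on chrM:7013-10173 between the well counted mt-Co1 and mt-Nd4. Summed, they had 140, 126 and 86 counts with vehicle and 231, 138 and 79 counts with PSB-KD107. mt-Co3, for example, had 1.17, 1.40 and 0.900 CPM with vehicle and 1.83, 1.73 and 0.880 CPM with PSB-KD107, and mt-Atp6 had 0.383, 0.516 and 0.403 against 0.715, 0.642 and 0.303 CPM. Changes of 0.35 (SE 0.38) for mt-Co3, 0.35 (SE 0.41) for mt-Atp6 and 0.026 (SE 0.33) for mt-Co2 came from these low counts. mt-Nd3, mt-Nd4l and mt-Atp8 were too low to test.

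The sequence of these genes is shared with another place in the genome. Of all windows of 100 bases in mt-Co3, 99.9% were also found in an unprocessed pseudogene on chromosome 1, Gm28437. Neighbouring pseudogenes there held 99.5% of the windows of mt-Co2, 99.5% of mt-Atp6, 98.5% of mt-Nd4l and 97.6% of mt-Nd3, against 60.8% of mt-Nd4, and Gm29216 alone held 26.3% of those of mt-Co1. For mt-Nd2, 3.20% of the windows were in Gm13339, which is not one of these copies, and mt-Nd1, mt-Nd5, mt-Nd6 and mt-Cytb shared no window with an annotated gene. mt-Atp8 shared no window with an annotated transcript. The 7 pseudogenes involved lie on chr1:24611535-24616197 and had 241, 282 and 186 counts with vehicle and 367, 246 and 206 counts with PSB-KD107. How the counting treated reads that match both places is not given in the sources used here, so the level of these 6 genes is uncertain and its relation to the copies was not tested. Among the 93 nuclear genes, 64 shared no window with another gene, and the only one over 50% was Ndufaf2. The first 100 bases of mt-Co3, chrM:8607-8706 on the plus strand of GRCm38, are shown because chr1:24613872-24613971 on the minus strand holds the same letters.
mt-Co3: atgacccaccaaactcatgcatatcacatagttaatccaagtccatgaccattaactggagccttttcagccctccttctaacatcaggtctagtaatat

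**Figure D5:**
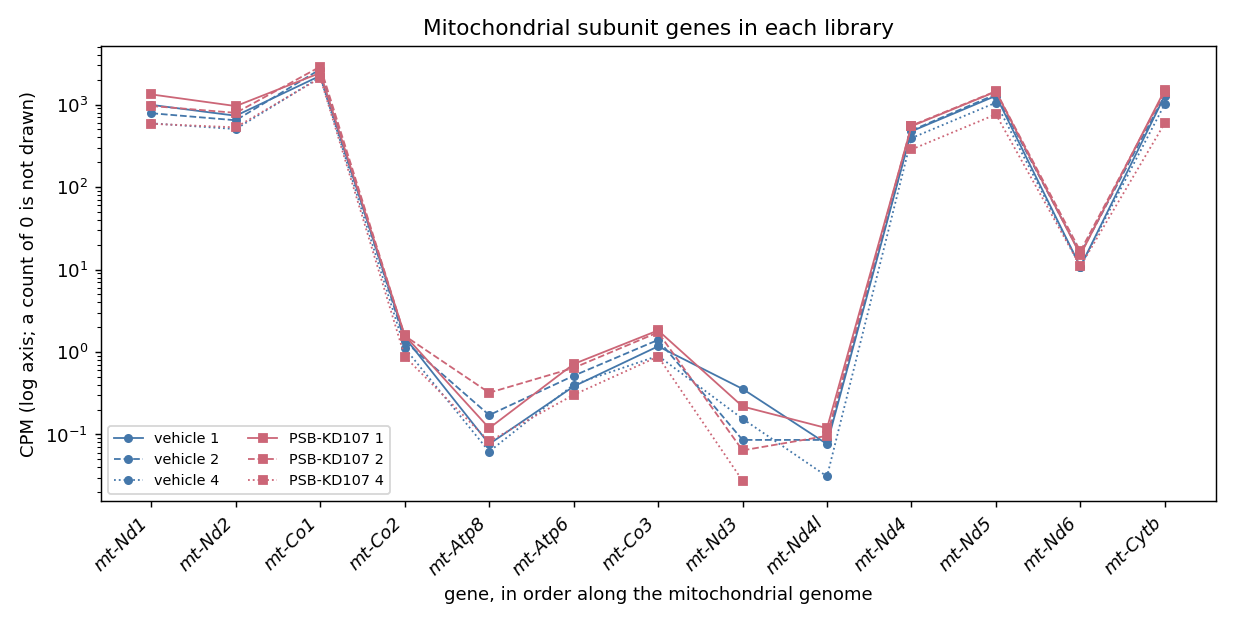
CPM in each library (y axis, log scale; a count of 0 is not drawn) of the 13 mitochondrial genes in their order along the genome (x axis), with vehicle in blue and PSB-KD107 in red. The genes from mt-Co2 to mt-Nd4l lie below 2 CPM in every library. Among the well counted genes, PSB-KD107 library 4 (red, dotted) is the lowest at mt-Nd4, mt-Nd5 and mt-Cytb, and narrowly at mt-Nd1 and mt-Co1.

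Other genes linked to the pathway were taken from lists by their known roles. Of 43 tested assembly factors outside the symbols above, 37 were above 0, with a median of 0.11, and 2 were higher at an unadjusted p under 0.05, namely Ecsit at 0.34 (SE 0.092) and Coa5 at 0.35 (SE 0.13), a share of 4.65% beside the 9.40% of all genes. Without PSB-KD107 library 4, Coa5 was at 0.21. Ecsit, a factor of complex I assembly, was at 28.2, 29.1 and 29.8 CPM with vehicle and 35.9, 36.7 and 37.5 CPM with PSB-KD107, with an adjusted p of 0.345 in edgeR and 0.0126 in DESeq2. Of 29 genes that maintain and transcribe mitochondrial DNA, 19 were above 0, with a median of 0.065, and 1 was higher at an unadjusted p under 0.05, or 3.45%. The median was 0.015 without vehicle library 1, 0.022 without PSB-KD107 library 4 and 0.027 without PSB-KD107 library 2. The gene was Lrpprc, which stabilises mitochondrial mRNAs, at 0.29 (SE 0.10). Polrmt, the mitochondrial RNA polymerase, had -0.35, or -0.21 with the chromosome 14 term, with 55.6, 72.0 and 75.8 CPM with vehicle and 51.0, 63.4 and 45.7 CPM with PSB-KD107.

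Of 12 regulators of mitochondrial biogenesis, 4 were higher at an unadjusted p under 0.05 and 0 lower, a share of 33.3% beside the 9.40% of all genes. They were Ppargc1a, Esrra, Esrrg and Nfe2l2, the last 2 named after their values were seen, and the median of the list was 0.14, or 0.25 without vehicle library 1. Ppargc1a, the coactivator that drives mitochondrial genes, had 6.35, 10.1 and 7.07 CPM with vehicle and 17.8, 23.1 and 53.0 CPM with PSB-KD107. Its groups were apart, at 2.00 (SE 0.46), with an adjusted p of 0.264 in edgeR and 0.0015 in DESeq2. Without PSB-KD107 library 4, its highest library, the log2 fold change was 1.38. Esrra, the estrogen-related receptor alpha, had 62.6, 58.1 and 56.1 CPM with vehicle and 81.7, 75.2 and 98.0 CPM with PSB-KD107. It was also apart, at 0.53 (SE 0.12), with an adjusted p of 0.281 in edgeR and 0.028 in DESeq2.

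Of 18 citric acid cycle genes, 13 were above 0 with a median of 0.16, and 1 was higher and 1 lower at an unadjusted p under 0.05, together 11.1%. The median was 0.082 with the chromosome 14 term and 0.10 without PSB-KD107 library 1. Idh3a, a subunit of the NAD-dependent isocitrate dehydrogenase, had 0.46 (SE 0.13). Its other subunits Idh3b and Idh3g, named after their values were seen, had 0.069 (SE 0.091) and -0.0059 (SE 0.084). Idh2, the NADP-dependent enzyme of mitochondria, had -0.31 (SE 0.084, adjusted p = 0.346 in edgeR and 0.012 in DESeq2). Of 15 mitochondrial carriers, 13 were above 0 with a median of 0.31, or 0.21 with the chromosome 14 term. At an unadjusted p under 0.05, 2 were higher, or 13.3%. Slc25a4, the ATP and ADP exchanger of muscle, had 822, 668 and 630 CPM with vehicle and 1017, 794 and 1041 CPM with PSB-KD107, or 0.43 (SE 0.16), with vehicle library 1 above PSB-KD107 library 2. Ucp3 had 1.92 (SE 0.65), with 2.83, 1.98 and 1.33 CPM with vehicle and 6.08, 2.76 and 14.4 CPM with PSB-KD107. The groups overlapped, and the log2 fold change was 1.11 without PSB-KD107 library 4 and 1.31 with the chromosome 14 term. Of 15 genes of electron carriers and ubiquinone synthesis, 12 were above 0 with a median of 0.13, or 0.080 with the chromosome 14 term. Coq10a, a ubiquinone-binding protein, was the only gene of that list with an unadjusted p under 0.05 (6.67% of the list), at 37.8, 31.9 and 31.9 CPM with vehicle and 63.9, 51.1 and 67.6 CPM with PSB-KD107, or 0.85 (SE 0.14, adjusted p = 0.184 in edgeR and 0.00024 in DESeq2).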

How the data were processed

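The authors deposited raw read counts per gene for 6 libraries of mdx myoblasts, 3 with vehicle and 3 with PSB-KD107, aligned with STAR to mm10 after poly(A) selection and a directional kit. The counting program, its annotation and its use of strand are not given in the sources used here. Groups were taken from the sample labels and the column names, where libraries numbered 4 match a group but no single label. Genes kept by filterByExpr were compared with edgeR 4.0.16 (TMM factors, quasi-likelihood test, Benjamini-Hochberg adjustment over all 14165 genes, threshold 0.05) in R 4.3.3, and with DESeq2 1.42.0 as an alternative. The p-values measure the spread between these libraries. CPM are scaled by TMM factors, and FPKM divide CPM by exon length from GENCODE M21. The script was tested on simulated counts. Named were all mitochondrial genes, complex II, Cyc1, the isoform pairs, and in each class the 3 nuclear genes of smallest p and the most abundant one, with 2 genes per other list. A gene that this rule names is not reported here. The genes and lists were chosen with earlier results of these data known. Samples of equal number deviated together with correlations of 0.63, 0.47 and -0.13, so that the numbers were not used as pairs. Alternatives were other scalings, filters and tests, a replicate block and leaving out each library, with a chromosome 14 term and DESeq2 without each library added after seeing the data.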

Additional observations from a re-analysis of the deposited data

How the results depend on the processing

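The change of Cox8b kept its direction under each of the 22 alternatives, between 1.09 and 1.24 on the log2 scale, and 34 of the 49 named genes that had a fit under all 22 kept their sign. For mt-Atp6, which had a fit under 21, the sign also held. The count of genes called was 0 with the main settings, 480 with DESeq2 and 8 with no filter on low counts, and ran from 0 to 815 with a library left out, over edgeR (0 each time) and DESeq2 (184 to 815). Genes of the complexes called were 1 with DESeq2 and 0 to 2 with a library left out. Those higher at an unadjusted p under 0.05 were 3 with RLE size factors, 1 in the 4 libraries numbered 1 and 2, 7 with the chromosome 14 term, and 1 to 12 with a library left out (1 to 9 in edgeR). The cause of these differences was not tested, beyond the smaller number of libraries in some. For the counts at an unadjusted p, the share of all genes in the same fit is not given. Those counts are therefore not read as a result about the complexes.

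By the check used, libraries of equal number deviated together for numbers 1 and 2 (correlations of 0.63 and 0.47) but not for number 4 (-0.13). PSB-KD107 library 2 also deviated with vehicle library 4, at 0.62, so the numbers were not used as pairs in the main fit. With a replicate block on the 4 libraries numbered 1 and 2, which leaves 1 residual degree of freedom, 2456 genes were called, 6 of them in the complexes. In that fit, 20 genes of the complexes were higher at an unadjusted p under 0.05. The share of all genes at that p is not given for it, so the 20 is not read as a response of the complexes. The block on these 4 libraries gave 0.15 for mt-Nd5, 0.022 for Uqcr11, 0.18 for mt-Cytb, -0.064 for Cox7a2l, -0.084 for Cox6a2, 0.022 for Cox8a, 0.074 for Ndufa4 and -0.0081 for Atp5g2, each opposite in sign to the main value. With the 4 libraries and no block the same genes had 0.15, 0.020, 0.18, -0.064, -0.076, 0.027, 0.073 and -0.012. The replicate block on all 6 libraries turned mt-Nd4 to -0.018 and mt-Co2 to -0.0080.

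Cox6a2 was -0.0035 with DESeq2, -0.0035 with RLE size factors and -0.16 with the chromosome 14 term, which also turned mt-Nd5 to 0.033, mt-Cytb to 0.0051 and Cox7a2l to -0.035. With a library left out in either tool, the ranges were -0.049 to 0.54 for mt-Nd1, -0.12 to 0.29 for mt-Nd4, -0.16 to 0.24 for mt-Nd5, -0.060 to 0.034 for Uqcr11, -0.27 to 0.29 for mt-Cytb, -0.042 to 0.17 for Cox7a2l, -0.29 to 0.33 for Cox6a2, -0.036 to 0.17 for Cox6b1, -0.014 to 0.11 for Cox7a2, -0.45 to 0.13 for Ndufa4, -0.067 to 0.17 for mt-Co1, -0.13 to 0.25 for mt-Co2 and -0.069 to 0.0057 for Atp5s. The medians of the nuclear genes and of the nuclear subunits of each complex stayed above 0 under all 22 alternatives, from 0.045 to 0.17 for all nuclear genes, and moved by less than the spread between libraries. With 3 libraries a group, log2 differences near the median standard error of 0.12 could not be told from 0.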
